A study of Homo sapiens with 6 samples.

Results

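Nodal signalling transcripts were described across the RNA-seq libraries of human induced pluripotent stem cells (hiPSCs) grown as aggregates in vertical wheel bioreactors. The group holds 10 genes of the 19977 counted in each library, chosen by name through GENCODE 44. They are the ligands NODAL, GDF3 and GDF1, the co-receptors TDGF1 (Cripto) and CFC1 (Cryptic), the secreted inhibitors LEFTY1, LEFTY2 and CER1 (Cerberus), and the receptors ACVR1B and ACVR2B. All 10 passed the filter on low counts.

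The cells were NCRM-1, a wild-type hiPSC line derived from CD34+ cord blood. There were 3 libraries from E8 medium with 10 mg/ml polyethylene glycol (PEG) and 0.1 µg/ml of the sodium salt of heparin (PEG and HS), and 3 libraries from E8 alone (E8 control). In both media 50% of the volume was exchanged on day 2 and RNA was taken on day 4. E8 supplies FGF2 and TGFb1 in both media, so a TGF-beta ligand that acts through SMAD2 and SMAD3 was present in every culture. The labels carry one treatment text with PEG and heparin for all 6 libraries, and the treatment tag of each library was followed. They read as 1 bioreactor for each medium, so an effect of the vessel and one of the medium cannot be told apart. The p-values measure only the spread between these samples, which may be technical.

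Libraries held 26991279 to 36185138 counts. The pluripotency markers summed to 9960 to 10200 CPM (counts scaled to library size) in PEG and HS and to 10100 to 10200 CPM in E8 control, with none of the 10 markers at 0, and the markers of the labelled cell type were therefore present. Under this even sum, 5 of the 10 were higher in PEG and HS and 4 lower, among them POU5F1 (log2 fold change 0.23, adjusted p = 3.2e-06) and SOX2 (-0.59, adjusted p = 4.79e-10). All 8 neuroectoderm markers (PAX6, SOX1, OTX2, SIX3, LHX5, OLIG3, NES and ZIC1) were lower in PEG and HS, and their summed level was 572 to 611 CPM against 786 to 818 CPM. Most of both sums was NES, at 543 ± 20.5 against 643 ± 14 CPM (SD, n = 3 each). The fibroblast markers were lower in 4 of 6 cases (171 to 180 against 234 to 260 CPM), with COL1A1 and COL1A2 the most abundant. COL1A1 made most of that difference, at 60.1 ± 3.02 against 120 ± 5.23 CPM (SD, n = 3 each). COL1A2 and PDGFRB were not called. For COL3A1 the controls were at 17.6, 17.2 and 9.87 CPM, and for DCN at 4.3, 4.25 and 1.88 CPM. Their replicate 3 thus lay near PEG and HS, at 7.68 to 9.59 CPM for COL3A1 and 1.57 to 2.16 CPM for DCN. The trophectoderm and amnion markers were lower in 2 of the 6 tested (0.68 to 1.54 against 6.79 to 7.2 CPM), with CGA at 0 in every library. Most of the difference in that sum came from TFAP2A, at 0.603 ± 0.269 against 6 ± 0.23 CPM (SD, n = 3 each). HAND1, the other gene lower, was near the floor, with 1, 0 and 0 counts in PEG and HS and 6, 7 and 2 in E8 control. GATA3, TP63, ISL1 and VTCN1 were not called. None of the 7 mesendoderm and primitive streak markers tested was called (4.89 to 5.06 against 5.11 to 5.46 CPM). The part of these shifts in the values below was not tested, and fewer cells of a type cannot be told apart from less RNA per cell in bulk samples.

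Nodal is a ligand of the TGF-beta family that binds a type II receptor (ACVR2B or ACVR2A) and a type I receptor (ACVR1B or ACVR1C), and it needs an EGF-CFC co-receptor, Cripto or Cryptic, to do so. The activated type I receptor phosphorylates SMAD2 and SMAD3, which enter the nucleus with SMAD4 and act with partners such as FOXH1. In pluripotent human cells this branch, driven by Nodal, activin or TGF-beta, sustains NANOG, and in the embryo it patterns mesendoderm and the left-right axis. NODAL, LEFTY1 and LEFTY2 are themselves targets of the pathway, and the Lefty proteins block Nodal and its co-receptors, which closes a negative feedback loop.

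Several members have near copies elsewhere in the genome, and how reads were assigned between copies is not given in the sources used here. The coding sequences of LEFTY1 and LEFTY2 are 97.18% identical, with 31 differences over 1098 bases and an identical run of 300 bases.

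CFC1 and its copy CFC1B differ at 2 of 669 coding bases (99.7% identity). Both differences lie in exon 3, marked by capitals at the end of the stretches below, which show how little of the sequence tells these genes apart. They are coding bases 143 to 232, at chr2:130598657-130598746 (GRCh38) on the minus strand for CFC1 and chr2:130522026-130522115 on the plus strand for CFC1B. A read that misses these bases in the coding sequence fits both genes equally well.
CFC1: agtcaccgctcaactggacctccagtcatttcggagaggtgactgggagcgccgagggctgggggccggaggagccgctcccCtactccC
CFC1B: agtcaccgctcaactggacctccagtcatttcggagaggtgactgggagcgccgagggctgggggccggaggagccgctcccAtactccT

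TDGF1 and the retrocopy TDGF1P3 on chromosome X differ at 7 of 564 coding bases (98.76% identity). Of all 31-base words in a gene's transcripts, 49.1% recur in other genes for LEFTY1, 31.3% for LEFTY2, 47.6% for TDGF1, 92.2% for CFC1 and 100% for GDF1. The GDF1 transcript of 2579 bases is identical to one of the ceramide synthase gene CERS1. NODAL, GDF3 and CER1 share no such word with another gene, and the receptors at most 1.1%.

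Of the 10 members, 3 rose in PEG and HS (NODAL, GDF3 and LEFTY1), 2 fell (CFC1 and ACVR1B) and 5 did not pass the test. The test was the quasi-likelihood test of edgeR, adjusted by Benjamini-Hochberg over 16505 genes, which is meant by every adjusted p below, and genes were called at an adjusted p under 0.05. Of all genes tested, 25.3% were called, 12.2% higher and 13.1% lower. No overlap between media was seen for 5 members, of which 4 were higher and 1 lower, while 39.3% of all genes tested did not overlap (19.5% higher and 19.8% lower). The median log2 fold change was -0.0094 over the members and 0.0031 over all genes tested.

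**Figure D1:**
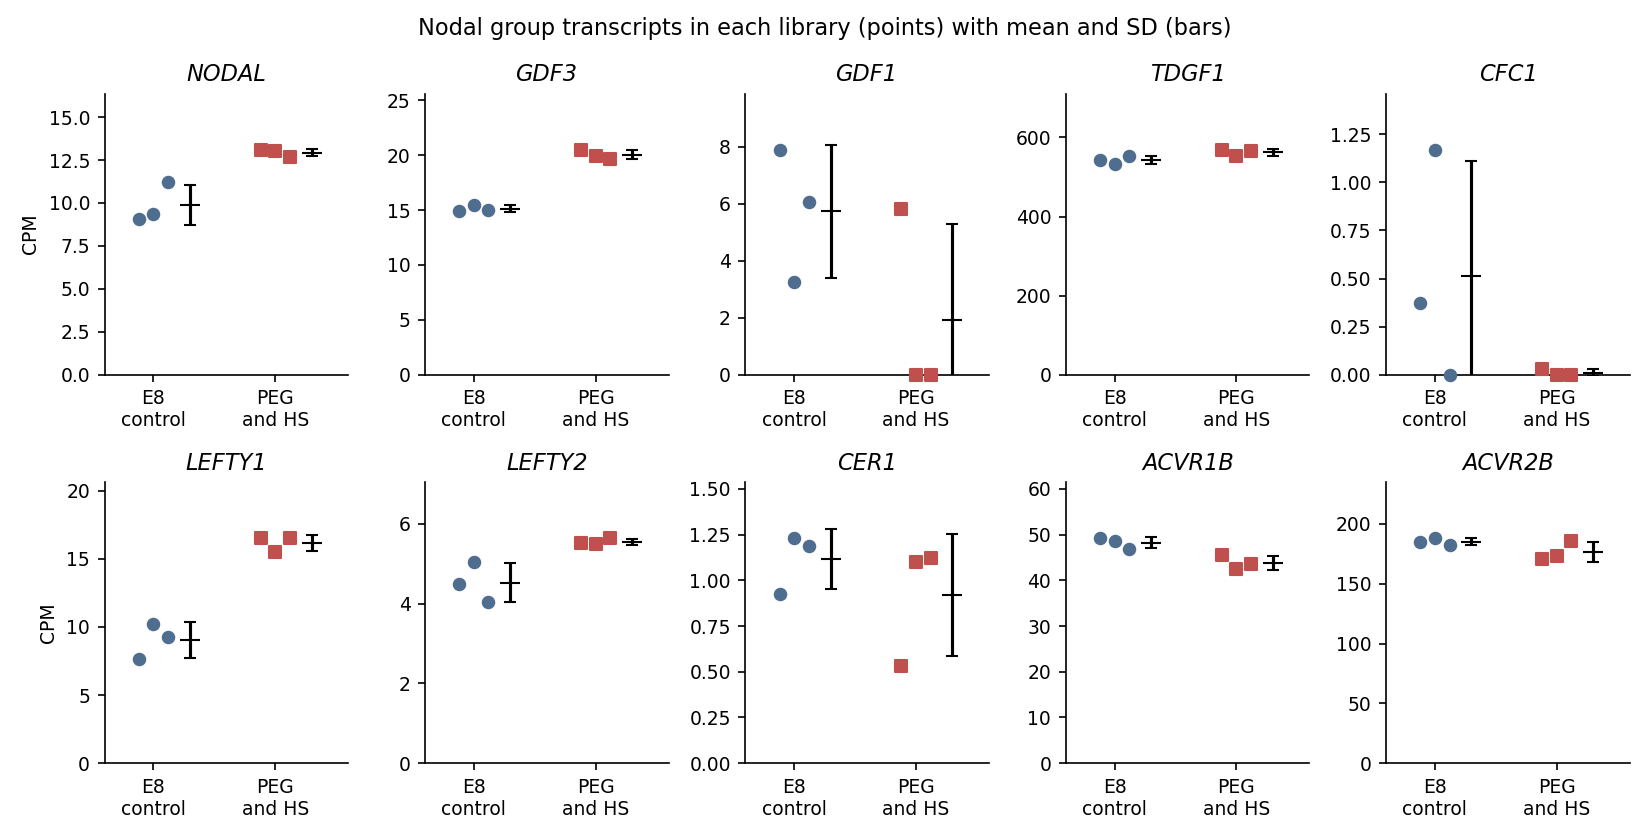
CPM of each of the 10 members (vertical axes, each from 0) in the 3 E8 control libraries (circles) and the 3 PEG and HS libraries (squares), with the mean and SD as a bar beside each group, cut at 0. NODAL, GDF3, LEFTY1 and LEFTY2 lie above all E8 control libraries in each of the PEG and HS libraries, ACVR1B lies lower, and the other 5 members overlap.

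Among the ligands, NODAL (ENSG00000156574, chr10:70431936-70447951, minus strand) was at 13.1, 13 and 12.7 CPM with PEG and HS and at 9.08, 9.33 and 11.2 CPM in the E8 control libraries. Every PEG and HS library lay above every control, and the controls were the more widely spread. The means were 12.9 ± 0.217 CPM (SD, n = 3) and 9.86 ± 1.14 CPM (SD, n = 3), a log2 fold change of 0.38 (SE 0.08, 95% interval 0.21 to 0.55, adjusted p = 0.00223). An absolute change larger than this was seen in 18.3% of the genes tested.

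GDF3 (ENSG00000184344, chr12:7689784-7695775, minus strand), a ligand of the same family that also uses Cripto and is abundant in pluripotent cells, was at 20.5, 19.9 and 19.7 CPM with PEG and HS and at 14.9, 15.5 and 15 CPM in E8 control. Both groups were tight and far apart. The means were 20.1 ± 0.42 and 15.1 ± 0.3 CPM (SD, n = 3 each), a log2 fold change of 0.41 (SE 0.055, 95% interval 0.29 to 0.52, adjusted p = 5.48e-05), and this value held between 0.39 and 0.42 in all 13 other settings tried.

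GDF1 (ENSG00000130283, chr19:18868545-18896158, minus strand), which forms heterodimers with Nodal, had 196, 0 and 0 counts with PEG and HS and 213, 106 and 219 counts in E8 control. The libraries of PEG and HS thus differed among themselves more than the media did, and the log2 fold change of -1.50 was not called (SE 0.75, adjusted p = 0.169). Without PEG and HS replicate 1 the fit gave -10.49 (adjusted p = 7.63e-06), but the remaining PEG and HS libraries were both at 0, so that this size depends on the prior count of the fit and is not a measured fold. CERS1, the gene whose transcript contains the whole of GDF1, had 554, 652 and 777 counts with PEG and HS and 410, 708 and 633 counts in E8 control. Both genes together were at 22.7 ± 0.433 and 23.9 ± 1.02 CPM (SD, n = 3 each), a log2 fold change of -0.075 (SE 0.052, 95% interval -0.19 to 0.035, adjusted p = 0.328). GDF1 took 26.1%, 0% and 0% of the joint counts with PEG and HS and 34.2%, 13% and 25.7% in E8 control, so the split between the genes varied inside each medium. In the libraries without a GDF1 count, the 95% Wilson interval allows a share of up to 0.586% and 0.492%, for counting error only.

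Of the co-receptors, TDGF1 (ENSG00000241186, chr3:46574534-46582457, plus strand) was at 569, 553 and 566 CPM with PEG and HS and at 544, 534 and 554 CPM in E8 control. The media overlapped, since the lowest PEG and HS library lay under the highest control. The means were 563 ± 8.62 and 544 ± 10 CPM (SD, n = 3 each). The log2 fold change was 0.049 (SE 0.026) with a 95% interval of -0.0054 to 0.10 (adjusted p = 0.186), so a rise above the upper limit lies outside the interval, and equal levels were not shown. TDGF1 held 97.5% to 97.9% of the joint counts of the pair in every library. TDGF1P3 itself was at 12.6 ± 0.714 and 12.9 ± 0.98 CPM (SD, n = 3 each, log2 fold change -0.029, adjusted p = 0.819).

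CFC1 (ENSG00000136698, chr2:130592165-130599575, minus strand) was almost silent, with 1, 0 and 0 counts with PEG and HS and 10, 38 and 0 counts in E8 control. The media overlapped at 0, because E8 control replicate 3 had no count. It was called lower (log2 fold change -5.16, SE 1.4, adjusted p = 0.013), and the call rested on single libraries, since it was lost without E8 control replicate 2 (-3.57, adjusted p = 0.117) and without PEG and HS replicate 1 (-7.02, adjusted p = 0.0509, a fitted size only, since the PEG and HS libraries left were at 0). The counts of its copy CFC1B were 1, 0 and 2 in PEG and HS and 0, 0 and 13 in E8 control. The control library without CFC1 counts was thus the one that held CFC1B counts.

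Added together, CFC1 and CFC1B had 2, 0 and 2 counts with PEG and HS and 10, 38 and 13 counts in E8 control, and the media no longer overlapped. The sum was at 0.0394 ± 0.0342 and 0.634 ± 0.464 CPM (SD, n = 3 each), a log2 fold change of -3.82 (SE 0.74, 95% interval -5.39 to -2.24, adjusted p = 0.00129). With each library left out in turn it lay between -4.15 and -3.02, and its adjusted p did not exceed 0.00874. The highest library stood at 1.17 CPM. The sums with each library left out were added after the values were seen.

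Among the inhibitors, LEFTY1 (ENSG00000243709, chr1:225886282-225911382, minus strand) showed the largest rise of the group. It was at 16.5, 15.5 and 16.5 CPM with PEG and HS and at 7.64, 10.2 and 9.28 CPM in E8 control, without overlap. The means of 16.2 ± 0.57 and 9.05 ± 1.31 CPM (SD, n = 3 each) gave a log2 fold change of 0.83 (SE 0.085, 95% interval 0.65 to 1.01, adjusted p = 3.14e-06), a 1.78-fold difference. Only 6.42% of the genes tested changed by more in absolute terms.

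LEFTY2 (ENSG00000143768, chr1:225936598-225941383, minus strand) was at 5.52, 5.49 and 5.64 CPM with PEG and HS and at 4.49, 5.05 and 4.05 CPM in E8 control. The media did not overlap, but the difference missed the threshold (log2 fold change 0.30, SE 0.11, 95% interval 0.069 to 0.52, adjusted p = 0.0548). Without E8 control replicate 2, the highest control, it was 0.38 and was called (adjusted p = 0.0305).

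As the Lefty genes share sequence, their joint counts were tested too, and rose from 13.6 ± 1.59 to 21.7 ± 0.625 CPM (SD, n = 3 each, log2 fold change 0.67, SE 0.073, adjusted p = 5.43e-06). LEFTY1 held 74.9%, 73.9% and 74.5% of the pair in PEG and HS and 63%, 66.9% and 69.6% in E8 control. The share was 7.9 percentage points higher in PEG and HS and did not overlap between media, with p = 0.1 in a two-sided exact permutation test, the smallest p that 3 libraries against 3 allow.

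CER1 (ENSG00000147869, chr9:14719724-14722733, minus strand), an inhibitor of Nodal and BMP ligands made by anterior endoderm, was at 0.534, 1.1 and 1.12 CPM with PEG and HS and at 0.927, 1.23 and 1.19 CPM in E8 control. The groups overlapped. The log2 fold change of -0.30 had a 95% interval of -0.92 to 0.33 (adjusted p = 0.512), which spans 0, and no difference was detectable at this depth. DAND5, a relative of CER1, had 1 to 5 counts in each library.

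Of the receptors, ACVR1B (ALK4, ENSG00000135503, chr12:51951699-51997078, plus strand) was at 45.5, 42.5 and 43.5 CPM with PEG and HS and at 49.2, 48.7 and 46.9 CPM in E8 control. Every PEG and HS library lay under every control. The difference was small, 43.8 ± 1.53 against 48.3 ± 1.21 CPM (SD, n = 3 each, log2 fold change -0.14, SE 0.04, 95% interval -0.22 to -0.051, adjusted p = 0.0215). It was -0.13 to -0.12 on the log2 scale and missed the threshold, with an adjusted p of 0.0613 to 0.0791, when PEG and HS replicate 2 or 3 or E8 control replicate 1 or 2 was left out.

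ACVR2B (ENSG00000114739, chr3:38453890-38493142, plus strand) was at 170.7, 172.9 and 185.8 CPM with PEG and HS and at 185.4, 187.8 and 181.9 CPM in E8 control. PEG and HS replicate 3 lay among the controls and the other replicates under them. The means were 176.5 ± 8.14 and 185.1 ± 2.98 CPM (SD, n = 3 each). The log2 fold change was -0.068 (SE 0.033, 95% interval -0.14 to 0.0035, adjusted p = 0.161), and without PEG and HS replicate 3 it was -0.11 and was called (adjusted p = 0.0219). The other receptors listed, ACVR2A, ACVR1C and TGFBR1, are shared with activin or TGF-beta and were not called. ACVR2A lay higher in PEG and HS without overlap (log2 fold change 0.10, adjusted p = 0.263). ACVR1C (ALK7), at 0.652 ± 0.107 and 0.934 ± 0.201 CPM (SD, n = 3 each), had a log2 fold change of -0.53 (adjusted p = 0.206).

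**Figure D2:**
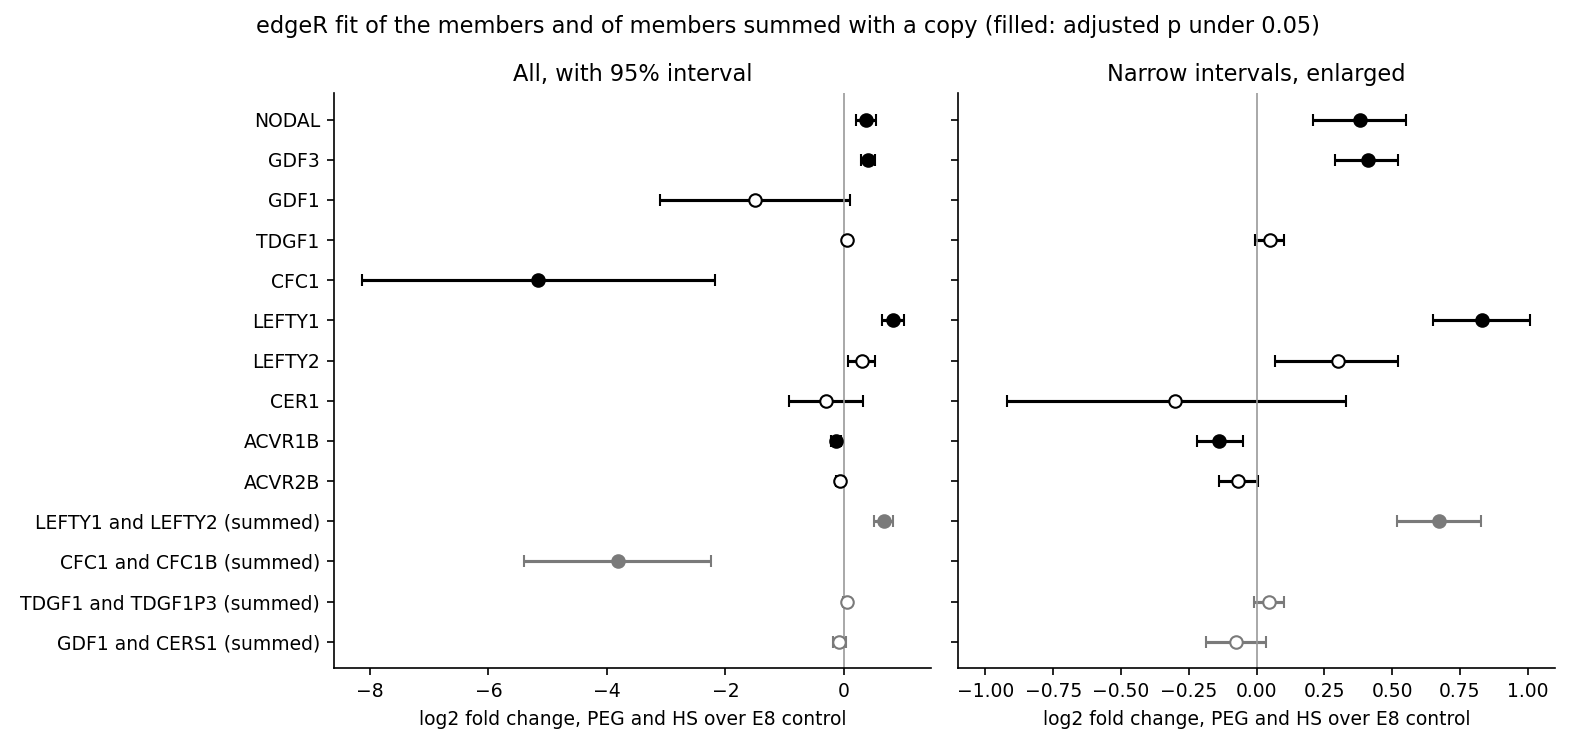
The log2 fold change of PEG and HS over E8 control with its 95% interval for the 10 members (black) and for members summed with a copy (grey), filled where the adjusted p was under 0.05, with the intervals that fit within ±1.1 enlarged on the right. LEFTY1 (0.83), GDF3 (0.41) and NODAL (0.38) lie above 0, ACVR1B (-0.14) lies slightly under it, and the widest intervals belong to CFC1, GDF1 and the sum of CFC1 and CFC1B.

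The stability of these values over other settings was uneven. NODAL, GDF3 and LEFTY1 were called in the reported fit and in every other fit made. LEFTY2 was called in 2 fits, ACVR2B in 1, and TDGF1 and CER1 in none.

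**Figure D3:**
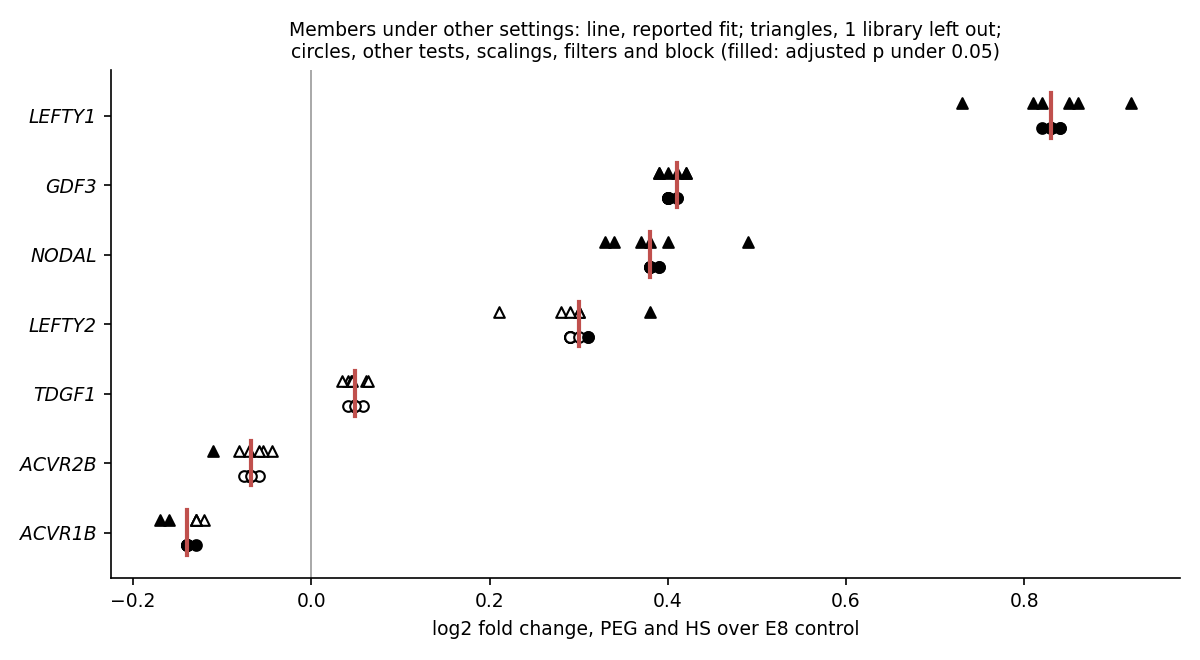
The log2 fold change of 7 members (horizontal axis) in the reported fit (line), with 1 library left out (triangles) and under other tests, scalings, filters or the replicate block (circles), filled where the adjusted p was under 0.05. NODAL ranges from 0.33 to 0.49 and GDF3 from 0.39 to 0.42, all filled, whereas LEFTY2, from 0.21 to 0.38, is mostly open.

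Levels of different members were compared as CPM per kilobase of canonical transcript. TDGF1 stood far above the rest at 288 ± 4.41 in PEG and HS and 278 ± 5.12 in E8 control (SD, n = 3 each), and 98.9% of the genes tested lay under it. In PEG and HS it was followed by GDF3 at 16.2, ACVR2B at 15, LEFTY1 at 9.94, ACVR1B at 9.68, NODAL at 6.28 and LEFTY2 at 2.75 CPM per kilobase, and LEFTY1 and ACVR1B overlapped. In E8 control the order was ACVR2B at 15.7, GDF3 at 12.2, ACVR1B at 10.7, LEFTY1 at 5.56, NODAL at 4.79 and LEFTY2 at 2.24 CPM per kilobase, and LEFTY1 overlapped with NODAL. The ligand GDF3 thus stood above the receptor ACVR2B in PEG and HS and under it in E8 control. Their libraries overlapped in neither medium, but in PEG and HS the lowest GDF3 library was at 15.9 and the highest ACVR2B library at 15.8. This order rests on the length of the canonical transcript, 1.24 kb for GDF3 and 11.8 kb for ACVR2B. Which transcripts were expressed was not tested. The ranks of LEFTY1 and LEFTY2 also depend on how reads shared with other genes were assigned, which is not known. CER1 was at 0.746 and 0.907 and CFC1 at 0.00591 and 0.307 CPM per kilobase. GDF1, at 0.751 and 2.23 CPM per kilobase, overlapped with CER1 in PEG and HS and with LEFTY2 in E8 control.

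**Figure D4:**
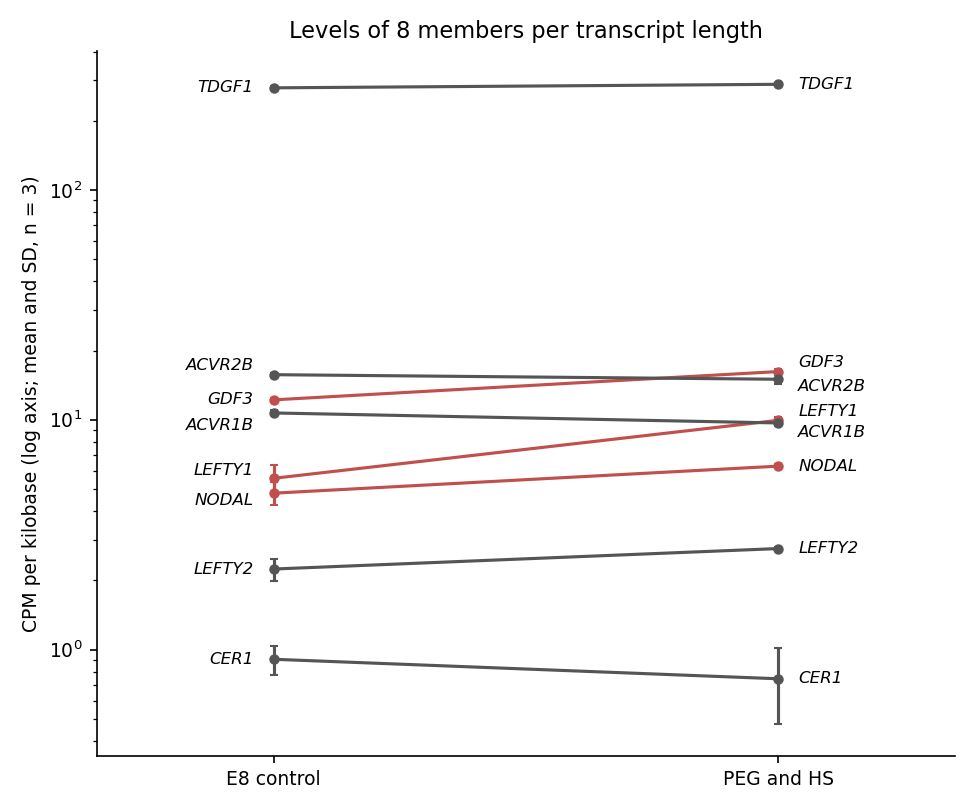
CPM per kilobase (log axis, mean and SD of 3 libraries) of 8 members in E8 control (left) and PEG and HS (right), with the members called higher in red and GDF1 and CFC1, which had libraries at 0, left out. TDGF1 lies near 288 in PEG and HS, far above GDF3 at 16.2, and the line of GDF3 rises past that of ACVR2B. The mean of LEFTY1 rises past that of ACVR1B, but their libraries overlap in PEG and HS.

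Over the 6 libraries, the genes whose log2 CPM followed NODAL most closely, among 13556 genes with a mean of at least 1 CPM, were GBGT1 (Pearson r = 0.995), ESRP1 (0.993), CAPN5 (0.993), LIN7C (0.993) and ZBTB44 (0.991). All 5 shared with NODAL an E8 control replicate 3 above the other controls, for example 3.85, 4.16 and 4.93 CPM for GBGT1. Among the members, LEFTY1 (r = 0.899) and GDF3 (r = 0.89) came closest, at ranks 777 and 911, and ACVR1B was the most opposed (r = -0.91). These values describe 6 libraries that share the contrast of media, and no test was made.

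The genes next to the members within 100 kb were examined as well. Around the Lefty genes, 3 of the 4 other genes examined rose and none fell. The nearest of these, TMEM63A, lies 3.9 kb from LEFTY1, encodes a mechanically activated ion channel, and rose from 45.1 ± 2.13 to 81.2 ± 5.4 CPM (SD, n = 3 each, log2 fold change 0.85, adjusted p = 4.43e-09), while EPHX1 (0.20, adjusted p = 0.000603) and SRP9 (0.13, adjusted p = 0.00278) rose by less. Beside NODAL, PALD1 (log2 fold change 0.30, adjusted p = 1.35e-05) and LRRC20 (0.24, adjusted p = 0.00103) rose, and EIF4EBP2, the nearest, had 0.06 (adjusted p = 0.0698). GDF3 lies 92.0 kb from NANOG, which rose, and 15.7 kb from DPPA3, which was not called (log2 fold change -0.07, adjusted p = 0.842). None of the 5 genes tested beside TDGF1 was called. Over all members, 8 of 36 neighbours tested rose and 1 fell, against 12.2% and 13.1% of all genes.

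The regions just before the start sites of the ligands that rose are shown for their motif content. RefSeq promoter windows of GRCh38.p14 were found for 7 members. They were searched on both strands for TGTNNATT, a core of FOXH1 sites, and CAGACA, a SMAD motif, which occur in 11% and 16.9% of the 35116 promoters of 300 bases. The 250 bases before the start are chr10:70441682-70441931 for NODAL and chr12:7695776-7696025 for GDF3, both on the minus strand, and capitals mark a match.
NODAL: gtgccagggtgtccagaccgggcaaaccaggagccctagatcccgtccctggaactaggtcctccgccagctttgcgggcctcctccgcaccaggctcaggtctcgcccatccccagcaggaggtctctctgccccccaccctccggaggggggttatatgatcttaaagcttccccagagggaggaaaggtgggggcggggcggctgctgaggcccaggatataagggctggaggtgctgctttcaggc
GDF3: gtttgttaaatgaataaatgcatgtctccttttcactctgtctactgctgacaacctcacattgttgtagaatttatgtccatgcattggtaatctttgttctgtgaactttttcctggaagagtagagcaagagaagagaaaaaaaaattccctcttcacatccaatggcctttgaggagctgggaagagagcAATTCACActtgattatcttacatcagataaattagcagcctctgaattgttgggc

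With positions counted from the start site, GDF3 holds a FOXH1 core on the opposite strand at -56, and NODAL neither motif in this window. The NODAL window lies inside the gene span given above, so the bases before the outer end of that span were not searched. CER1 holds FOXH1 cores at -154 and -88 and the SMAD motif at -218, and the other ACVR1B window the SMAD motif at -124. These matches are letters in a window and not binding sites.

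The rest of the pathway was read from lists of 52 genes, of which 51 were tested, 11 rose and 5 fell, again against 12.2% and 13.1% of all genes. The inhibitors of SMAD2/3 signalling rose in 5 of 13 cases and fell in 1. SMAD7, which blocks type I receptors and is a feedback target of the pathway, rose from 24.7 ± 0.936 to 40.8 ± 1.06 CPM (SD, n = 3 each, log2 fold change 0.73, SE 0.046, adjusted p = 1.37e-08). SKIL (SnoN), a co-repressor of SMAD proteins, rose from 153 ± 9.39 to 241 ± 5.42 CPM (SD, n = 3 each, log2 fold change 0.66, SE 0.038, adjusted p = 4.72e-09). PMEPA1, which keeps SMAD2 and SMAD3 from the receptor, had a log2 fold change of 0.33 (adjusted p = 0.000449), and the pseudoreceptor BAMBI and the phosphatase PPM1A had 0.29 (adjusted p = 0.00226) and 0.27 (adjusted p = 0.000389). DRAP1, which restrains FOXH1, fell slightly with libraries that overlapped (-0.12, adjusted p = 0.0453). The ubiquitin ligases SMURF1, SMURF2 and NEDD4L, and SKI, TGIF1, TGIF2 and LDLRAD4 were not called.

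Among the 9 signal transducers and nuclear partners, 1 rose and 3 fell. SMAD3 rose (log2 fold change 0.15, adjusted p = 0.0154), and SMAD4, the SMAD shared with the BMP branch, fell from 126 ± 0.29 to 103 ± 0.999 CPM (SD, n = 3 each, log2 fold change -0.30, adjusted p = 1.37e-06). FOXH1, the DNA-binding partner, fell from 100 ± 1.64 to 92.1 ± 3.18 CPM (SD, n = 3 each, log2 fold change -0.13, adjusted p = 0.0109), and the acetyltransferase CREBBP had -0.12 (adjusted p = 0.00508). EP300, the most highly counted of the list, had -0.016 (adjusted p = 0.697), and SMAD2 had -0.085 (adjusted p = 0.0884).

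Of the 11 genes of maturation and trafficking, 4 rose and none fell. HSPA5 (BiP), a chaperone that also binds Cripto at the cell surface, rose from 711 ± 3.56 to 812 ± 13.3 CPM (SD, n = 3 each, log2 fold change 0.19, adjusted p = 2.5e-05). PGAP6, a phospholipase that releases Cripto from its lipid anchor, had 0.16 (adjusted p = 0.00053). NCLN (nicalin) had 0.10 (adjusted p = 0.0203) and its partner NOMO2 0.086 (adjusted p = 0.0408), the latter with 92.2% of its sequence shared with NOMO1 and NOMO3, so that the split among these is uncertain. NOMO1 (0.014, adjusted p = 0.752) and NOMO3 (0.093, adjusted p = 0.211) were not called. FURIN and PCSK6, convertases that cleave the Nodal precursor, were not called, nor were the related PCSK5 and PCSK7.

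Of the 11 genes tested in the list of Nodal and activin targets, 1 rose and 1 fell. That list does not hold all targets of the pathway. It leaves out, among others, NODAL, LEFTY1, LEFTY2 and SMAD7, which are given above. Of those named, NODAL (log2 fold change 0.38), LEFTY1 (0.83) and SMAD7 (0.73) rose, and LEFTY2 was not called. NANOG rose from 126 ± 0.61 to 185 ± 1.76 CPM (SD, n = 3 each, log2 fold change 0.55, adjusted p = 6.55e-10), with 38.2% of its sequence shared, most with NANOGP8. HHEX, a gene of anterior endoderm, fell from 3.95 ± 0.257 to 2.52 ± 0.135 CPM (SD, n = 3 each, log2 fold change -0.64, adjusted p = 0.00164). MIXL1 (0.44, adjusted p = 0.122) and FOXA2 (-0.45, adjusted p = 0.0609) did not overlap between media and were not called. EOMES, GSC, LHX1 and GATA6 each averaged under 1 CPM in both media and were not called, and SOX17 had too few counts to be tested. The median log2 fold change was -0.012 over the targets, 0.019 over the inhibitors, -0.059 over the transducers, 0.086 over maturation and trafficking, 0.078 over the copies and -0.049 over the shared receptors, beside 0.0031 over all genes tested.

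**Figure D5:**
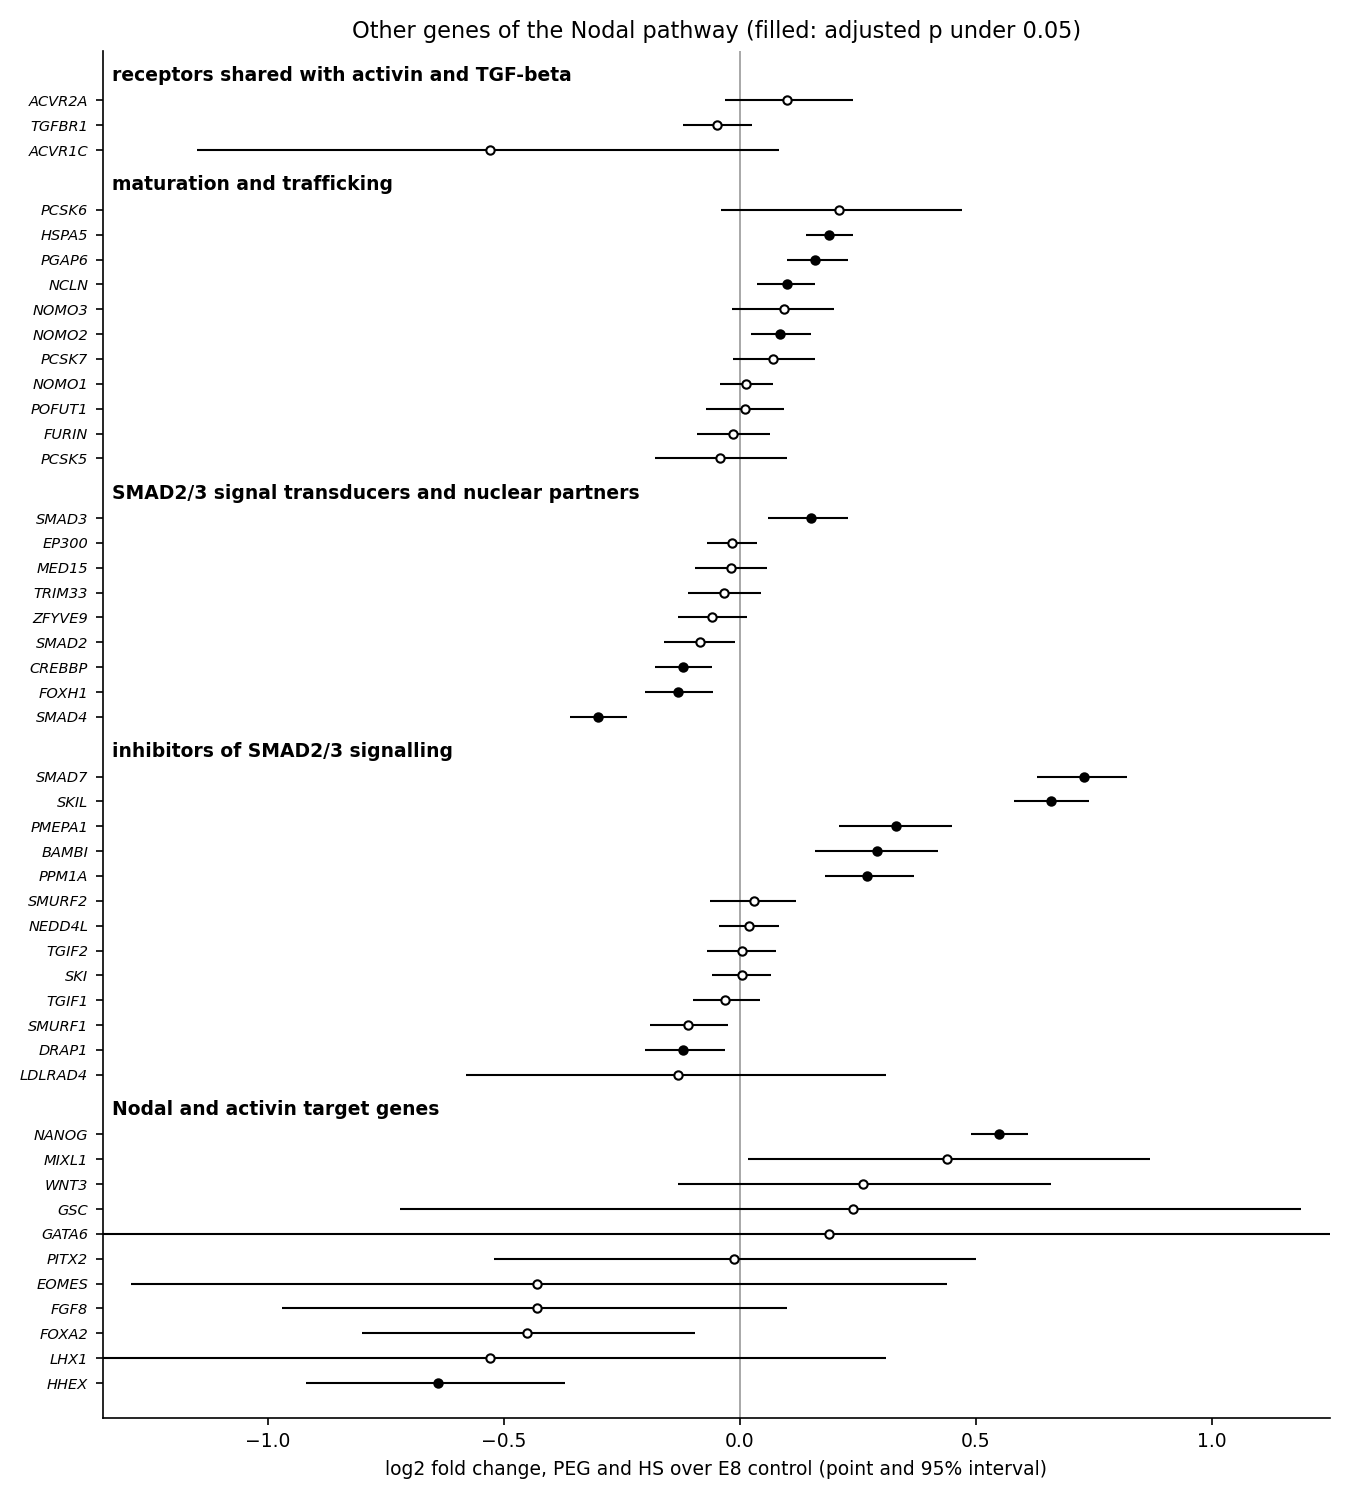
The log2 fold change of PEG and HS over E8 control (horizontal axis, point and 95% interval) of 47 other pathway genes in 5 lists, filled where the adjusted p was under 0.05, with the intervals of GATA6 and LHX1 running past the axis. SMAD7 (0.73) and SKIL (0.66) lead the inhibitors, SMAD4 (-0.30) lies lowest of the transducers, and NANOG (0.55) stands opposite HHEX (-0.64) among the targets.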

How the data were processed

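Stranded libraries of polyadenylated RNA were run through the nf-core/rnaseq pipeline by the authors, with trimming by Trim Galore 0.6.7 and mapping to GRCh38 by STAR 2.6.1, and the authors deposited raw counts per gene for each library, without normalization. The counting tool that was run, its use of strand and its treatment of reads that fit several genes are not given in the sources used here. From these counts, genes with at least 10 counts over the 6 libraries were kept (16505 of 19977), scaled with TMM (factors 0.994 to 1.006) and tested without covariates by glmQLFTest of edgeR 4.0.16 (R 4.3.3). CPM is relative to scaled library size. The common biological coefficient of variation was 3.12%. Symbols came from GENCODE 44 for 19916 identifiers. Alternatives were DESeq2 1.42.0, limma-voom (limma 3.58.1), other scalings and filters, a replicate block, summed copies and each library left out. The scripts were tested on simulated data. The members and gene lists were chosen with earlier results of these data known. Named were all members, genes that share sequence with them, up to 3 called genes in each direction with the largest change and the most highly counted gene of each list, and the 5 genes most like NODAL. Neighbouring genes and the other list genes given by value were picked with their values known. A few genes and sequences taken by this rule are not reported here and were left out of the counts of lists and neighbours. Protein sequences, and promoter windows of LEFTY1, LEFTY2 and TDGF1, were not used here.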

Additional observations from a re-analysis of the deposited data

How the results depend on the processing

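The count of 3 members called higher was 3 or 4 under every alternative. The direction of each member's log2 fold change was kept in every fit that gave it an adjusted p. All these fits reuse the same libraries, so a kept direction is no independent support. For CER1 the value shrank to -0.016 without PEG and HS replicate 1. The count of 2 members called lower was 1 with DESeq2, which gave no adjusted p for CFC1, and 1 with a filter of at least 1 CPM in 3 libraries, which left CFC1 out. With each library left out in turn it was 0 to 2. CFC1 was -2.88 with limma-voom (adjusted p = 0.253), GDF1 was -5.42 and called there (adjusted p = 0.0106), and LEFTY2 was 0.31 and called with library size alone (adjusted p = 0.0472). The count of 5 other pathway genes called lower was 8 with the 1 CPM filter, which tests fewer genes, and 3 to 6 with each library left out. Of all genes tested 4173 were called, 3398 with DESeq2 and 3114 without PEG and HS replicate 1.

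With the replicate number as a block, 6 members were called, 3 higher and 3 lower, since GDF1 was then -2.07 (adjusted p = 0.027), and 4444 of all genes tested. The deviations of same-numbered libraries correlated at only -0.0294, 0.018 and 0.0648, and those of differently numbered libraries at -0.0968 to 0.0754. With 3 libraries per medium such values cannot show whether same-numbered libraries were handled together, which was not tested. Genes of few counts, such as CFC1, CER1 and the mesendoderm targets, are limited by depth, and intervals cover counting error or the spread between these samples only.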
